A study of Mus musculus with 9 samples.

Results

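The genes described here are 10 receptor genes of myeloid cells, picked by a list of gene symbols that was drawn up with earlier results of these data known, of 25494 genes in the table of library values. They were the Fc gamma receptor genes Fcgr1, Fcgr2b, Fcgr3 and Fcgr4, the shared signalling chain Fcer1g, and the C-type lectin receptor genes Clec4d, Clec4e, Clec4n, Clec7a and Clec5a. All 10 were present in the library table and tested in each of 3 comparisons. RNA-seq of total RNA depleted of ribosomal RNA was carried out on 9 libraries of mouse bone marrow-derived macrophages (BMDMs), with 3 libraries for each of 3 groups. All cells lacked endogenous TTP (tristetraprolin, gene symbol Zfp36), an RNA-binding protein that binds AU-rich elements in 3′ untranslated regions and recruits mRNA decay enzymes. All had been immortalized with the oncogenes hcmyc and hRasG12V, and all received doxycycline (1 µg/ml) for 6 h and lipopolysaccharide (LPS, 1 µg/ml) for 1 h. The groups differed in the doxycycline-inducible vector: GFP alone (GFP), a GFP fusion of wild-type TTP (TTP), or the same fusion with S52A and S178A, which cannot be phosphorylated by the kinase MK2 at these serines (TTP-AA). The vectors had been introduced separately, so the construct and the transduced line carrying it cannot be told apart.

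Fc gamma receptors bind the constant part of IgG and let macrophages take up antibody-coated particles. FcγRI, FcγRIII and FcγRIV, encoded by Fcgr1, Fcgr3 and Fcgr4, activate the cell through the FcR gamma chain encoded by Fcer1g, whereas FcγRIIB (Fcgr2b) carries an inhibitory motif of its own. The lectins Mincle (Clec4e), MCL (Clec4d) and Dectin-2 (Clec4n) recognize microbial glycolipids or mannans and use the same gamma chain, Dectin-1 (Clec7a) binds beta-glucan and carries its own activating motif, and MDL-1 (Clec5a) signals through the adaptors DAP12 and DAP10. The routes through the gamma chain, Dectin-1 and DAP12 meet at the kinase Syk.

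The 3′ untranslated regions of the members were read first, because the element is the known binding place of TTP. In the transcript with the longest coding sequence of each gene in GENCODE M21 (build GRCm38), the heptamer TATTTAT was present in 0 of 10 members and in 27.4% of 11420 genes of the comparison tables. The pentamer ATTTA was present in 4 of 10 members, against 66.1% of those genes. Clec4e held 5 copies, Clec4d 3, Fcgr2b 2 and Clec7a 1, and the region measured 1751, 445, 2397 and 1450 bases in these genes. The shares above were not matched for length. The region had a median of 960 bases over the 11420 genes. It measured 493 bases or fewer in Fcgr3, Fcgr4, Clec4d, Clec4n, Fcer1g and Clec5a. Whether the lower shares among the members reflect short regions was not tested. The pentamers of the 3 genes with more than 1 copy are shown on the transcript strand with the pentamer in capitals, since these are the members whose untranslated region holds the short element more than once, and they were picked for display after the values had been seen.
Clec4d, chr6:123274941-123274965, plus strand: ttttgtttaaATTTAattcaatata
Clec4d, chr6:123275148-123275172, plus strand: tattttaagaATTTActtttcagtt
Clec4d, chr6:123275181-123275205, plus strand: tttgttatatATTTAatgaatggat
Clec4e, chr6:123282837-123282861, minus strand: aagtgaaattATTTAaaaattcatg
Clec4e, chr6:123282796-123282820, minus strand: tcaggactgcATTTAttgcatgata
Clec4e, chr6:123282512-123282536, minus strand: aattttgtgcATTTAtataattcac
Clec4e, chr6:123281912-123281936, minus strand: gaaaattttaATTTAtcttaacata
Clec4e, chr6:123281889-123281913, minus strand: taaatttcctATTTAgaaattggac
Fcgr2b, chr1:170960533-170960557, minus strand: ccatctttctATTTActttttcaag
Fcgr2b, chr1:170959811-170959835, minus strand: tcaggcagctATTTAagcttgctgt
The A and T content of these regions was highest in Clec4d, at 66.5%, and lowest in Fcgr1, at 47.5%. Fcgr1, Fcgr3, Fcgr4, Fcer1g, Clec4n and Clec5a held neither form in this transcript. This says only that the letters are absent from the region annotated in that transcript, and other transcripts were not read. For Clec5a the region was only 116 bases long, in a transcript of 858 bases. The joined exons of all Clec5a transcripts measured 3840 bases.

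Promoters were searched for 4 motifs on both strands, chosen after the values below had been seen: the interferon-gamma-activated site TTCNNNGAA, the interferon-stimulated response element core (GAAA, NN and again GAAA), the PU.1 core GAGGAAGT and an NF-kB form GGGNNTTCC. RefSeq promoters (GRCm38.p6, 250 bases before to 50 after each start) matched 9 of 10 members by symbol. Of 32851 promoters, 8.3%, 3.44%, 3.2% and 5.82% held the 4 motifs in that order. Matches were found in Fcgr1, Fcgr3, Fcgr4 and Clec4d, shown on the gene's strand with the motif in capitals.
Fcgr1 activated site, chr3:96294060-96294088, minus strand: aaggatgtatTTCCCAGAAaagggaacag
Fcgr4 response element, chr1:171018843-171018872, plus strand: ggtgtttctgGAAAAGGAAActggtgagat
Fcgr4 PU.1 core, chr1:171018892-171018919, plus strand: aaggctatttACTTCCTCtcttctagtc
Clec4d response element, chr6:123262097-123262126, plus strand: gctttctcaaTTTCCTTTTCctctttgctc
Fcgr3 NF-kB form, chr1:171059536-171059564, minus strand: cagtagcttgGGGTTTTCCccaagggtac
The Fcgr1 match began at position -108 from the start, and the Fcgr4 matches at -72 and -23. The sequences in Clec4d and the second in Fcgr4 were matched on the opposite strand. A match describes letters and shows no binding.

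Library sums of the deposited values ran from 21482954 in TTP replicate 1 to 102613526 in TTP-AA replicate 3. The library values contained no scatter between replicates: over all genes they had 4 nonzero singular values on the log scale, where 9 freely varying libraries give 8, so that each is the fitted mean of the authors' DESeq2 model. Levels below are those values divided by a library factor, and differences among replicates of a group show only the fitted term for the replicate number, which is the same in every group. Whether groups overlap in these values therefore restates the fitted terms and adds no support to a change. Errors come from the authors' comparison tables, as log2 fold change ± standard error with Benjamini-Hochberg adjusted p of a two-sided DESeq2 Wald test on 3 libraries per group. A change was called at an adjusted p under 0.05. The study's methods do not say whether the model shrank the fold changes, so sizes and errors are given as deposited. Reads of Zfp36 from the disrupted locus and from the vector could not be separated. Its log2 fold change was 0.04 ± 0.17 in TTP vs GFP (adjusted p = 0.93), so Zfp36 was not seen to rise in the libraries labelled TTP and gives no check of that label. It was 0.69 ± 0.17 in TTP-AA vs GFP (adjusted p = 0.000682) and 0.65 ± 0.17 in TTP-AA vs TTP (adjusted p = 0.000902). TTP and TTP-AA stand below for the libraries so labelled.

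The cells carried macrophage RNA and little of other lineages. Of 9 macrophage symbols 8 were listed, Adgre1 being present under its older name Emr1, and their summed level ran from 490760 to 908046 over the libraries. Summed levels of T cell, B cell, NK cell, mast cell and basophil, fibroblast and erythroid markers did not exceed 15.5 in any library. Neutrophil markers, 4 of 7 of them listed, summed to between 131 and 317, nearly all from S100a8, and dendritic cell markers, 5 of 5 listed, to between 241 and 357. In bulk RNA, fewer cells expressing a gene and less RNA per cell cannot be told apart.

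Receptor mRNAs differed widely in level. Per kilobase of transcript, the mean fitted level in GFP was highest for Fcgr3, at 10976, followed by Clec4d at 9134, Fcer1g at 7945, Clec4e at 7344 and Clec5a at 4672. Fcgr4 stood at 1510, Clec4n at 347, Fcgr2b at 330, Fcgr1 at 256 and Clec7a at 71.2 per kilobase, and the highest was 154 times the lowest. The low-affinity receptor Fcgr3 and the lectin Clec4d thus headed their families, and the high-affinity receptor Fcgr1 was the lowest of the Fc gamma receptors. The order depended on the length used: over the joined exons of all transcripts Clec5a stood at 1044 per kilobase, below Fcgr4, and Fcgr2b at 202, below Fcgr1 at 256. With no scatter in the library values, the order of neighbours could not be tested.

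In the libraries labelled TTP, 3 of 10 members differed from GFP, with Fcgr1 lower and Fcgr2b and Clec5a higher. In this comparison 9.16% of 11977 genes were called, 4.08% higher and 5.08% lower. In those labelled TTP-AA 3 of 10 also differed from GFP, here with Clec4d and Fcgr2b higher and Clec4n lower, where 17.9% of 13205 genes were called, 9.11% higher and 8.77% lower. The direct comparison of TTP-AA with TTP called 7 of 10, namely Fcgr1, Fcgr4, Fcer1g and Clec4d higher and Clec4n, Clec7a and Clec5a lower, with a background of 28.6%, 14.0% higher and 14.6% lower. Fcgr3 and Clec4e were called in none. The median log2 fold change of the members was 0.06, 0.20 and 0.13 in the 3 comparisons in that order, against 0.01, 0.00 and -0.01 over all genes tested.

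These calls depended on the width of the distribution of Wald scores. The central spread of the scores over all genes was 1.51 in TTP vs GFP, 1.77 in TTP-AA vs GFP and 2.17 in TTP-AA vs TTP, where a value of 1 corresponds to a standard normal distribution. Dividing the scores by it left 2 of the 13 calls, those of Fcgr1 (adjusted p = 0.00105) and Clec5a (adjusted p = 0.0487) in TTP vs GFP. The other 11 had adjusted p from 0.335 to 0.863, and no call in either TTP-AA comparison was kept, although 2 members in each had an unadjusted p under 0.05. Whether the wide scores come from many real changes or from standard errors that are too small was not tested.

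**Figure D1:**
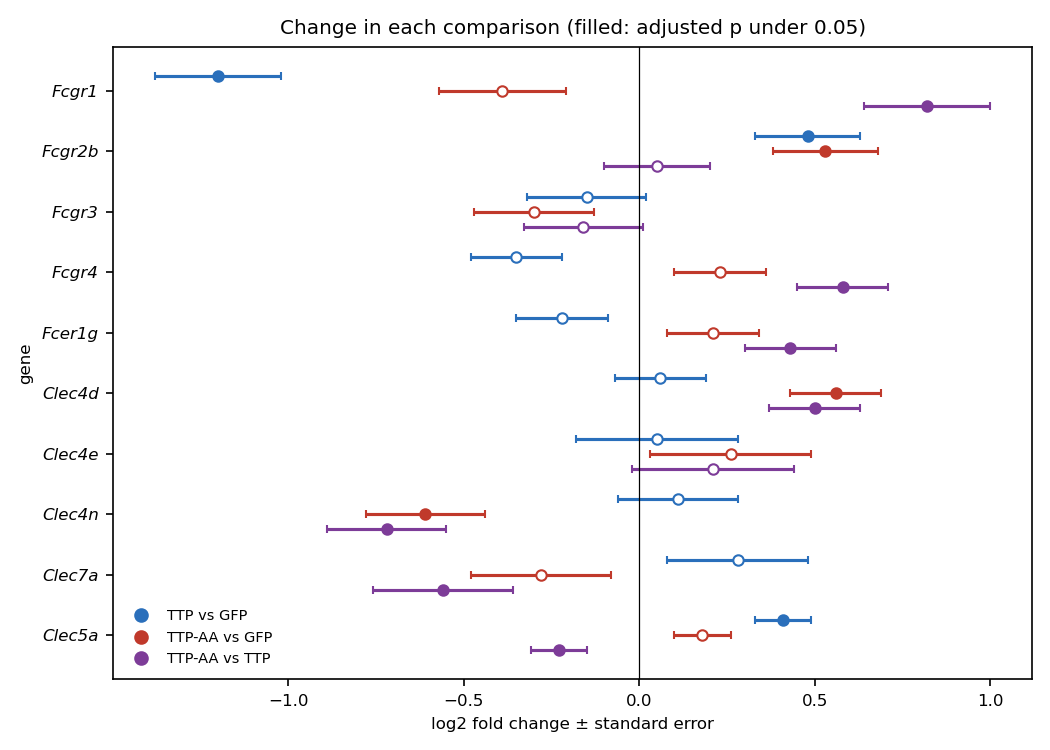
Log2 fold change (horizontal axis) of each of the 10 genes (vertical axis) in TTP vs GFP, TTP-AA vs GFP and TTP-AA vs TTP, with bars for the standard error of the DESeq2 model on 3 libraries per group and filled points for an adjusted p under 0.05. Fcgr1 in TTP vs GFP, at -1.20, is the farthest point from 0, and Fcgr3 and Clec4e have no filled point.

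Among the activating Fc receptors, Fcgr1 (ENSMUSG00000015947, chr3:96282909-96293969, minus strand), which encodes the high-affinity IgG receptor, was the member with the largest change. Its fitted levels were 836, 548 and 636 in GFP, 363, 238 and 276 in TTP, and 634, 415 and 483 in TTP-AA replicates 1 to 3. All 3 TTP values lay under all GFP and TTP-AA values. The mRNA fell by 1.20 ± 0.18 on the log2 scale in TTP vs GFP (95% interval -1.56 to -0.85, adjusted p = 2.99e-09), to 0.434 of the GFP level. It was 1.76-fold higher in TTP-AA than in TTP (log2 fold change 0.82 ± 0.18, adjusted p = 8.59e-05), and TTP-AA vs GFP gave -0.39 ± 0.18 (adjusted p = 0.121). Genes of chromosome 3 had a median log2 fold change of -0.20 in TTP vs GFP, and the call of Fcgr1 was kept relative to that median (adjusted p = 1.99e-06).

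Fcgr4 (chr1:171018920-171029761, plus strand), the receptor for IgG2 classes that also carried the response element match, was also higher in TTP-AA than in TTP. Fitted levels were 1818, 2363 and 1587 in GFP, 1424, 1845 and 1243 in TTP, and 2116, 2742 and 1848 in TTP-AA. The ranges of the 3 groups overlapped. The difference between TTP-AA and TTP was 1.5-fold (log2 fold change 0.58 ± 0.13, adjusted p = 0.00012). The values against GFP were -0.35 ± 0.13 for TTP (adjusted p = 0.0701) and 0.23 ± 0.13 for TTP-AA (adjusted p = 0.237).

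Fcer1g (chr1:171229572-171234365, minus strand), whose product is required for surface expression of the activating receptors, also rose in TTP-AA vs TTP, by 0.43 ± 0.13 on the log2 scale (95% interval 0.18 to 0.68, adjusted p = 0.00489). Its fitted levels were 5791, 6530 and 4226 in GFP, 4991, 5610 and 3642 in TTP, and 6645, 7473 and 4854 in TTP-AA. The 3 groups overlapped, and replicate 3 was the lowest of each group. Against GFP the change was -0.22 ± 0.13 for TTP (adjusted p = 0.324) and 0.21 ± 0.13 for TTP-AA (adjusted p = 0.27).

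Fcgr3 (chr1:171051174-171064935, minus strand), the most abundant Fc receptor mRNA, was not called. Its fitted levels ran from 12999 to 18596 in GFP, 11770 to 16786 in TTP and 10442 to 14899 in TTP-AA. The change was -0.15 ± 0.17 in TTP vs GFP, -0.30 ± 0.17 in TTP-AA vs GFP and -0.16 ± 0.17 in TTP-AA vs TTP, with a 95% interval of -0.49 to 0.17 for the last. The adjusted p was 0.691, 0.222 and 0.531, respectively. In the TTP-AA vs TTP comparison, therefore, of the 3 activating receptors Fcgr1 and Fcgr4 rose and Fcgr3 did not pass the test. Whether Fcgr3 differed from Fcgr1 and Fcgr4 was not tested.

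The inhibitory receptor Fcgr2b (chr1:170958617-170976547, minus strand) rose in TTP and in TTP-AA against GFP. Fitted levels were 1233, 1010 and 1284 in GFP, 1722, 1407 and 1793 in TTP, and 1762, 1440 and 1837 in TTP-AA. The fitted values of GFP lay below those of the other groups, which overlapped. The log2 fold change was 0.48 ± 0.15 in TTP vs GFP (adjusted p = 0.0235) and 0.53 ± 0.15 in TTP-AA vs GFP (adjusted p = 0.00592), the 2 comparisons sharing the GFP libraries. TTP-AA differed from TTP by 0.05 ± 0.15, with a 95% interval of -0.25 to 0.34 (adjusted p = 0.863). Of all the 50-base windows in the Fcgr3 transcript 12.8% also occurred in Fcgr2b, and these made up 4.75% of the Fcgr2b windows. In all, 8.24% of the Fcgr2b windows occurred in at least 1 of 145 other genes, Fcgr3 included, so that 50-base reads there could have been assigned to more than 1 gene or to none. The annotated span of Fcgr2b also overlapped that of Gm38204 on the other strand. Whether exons of these genes overlap was not tested, and the use of strand in counting is not given in the sources used here.

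**Figure D2:**
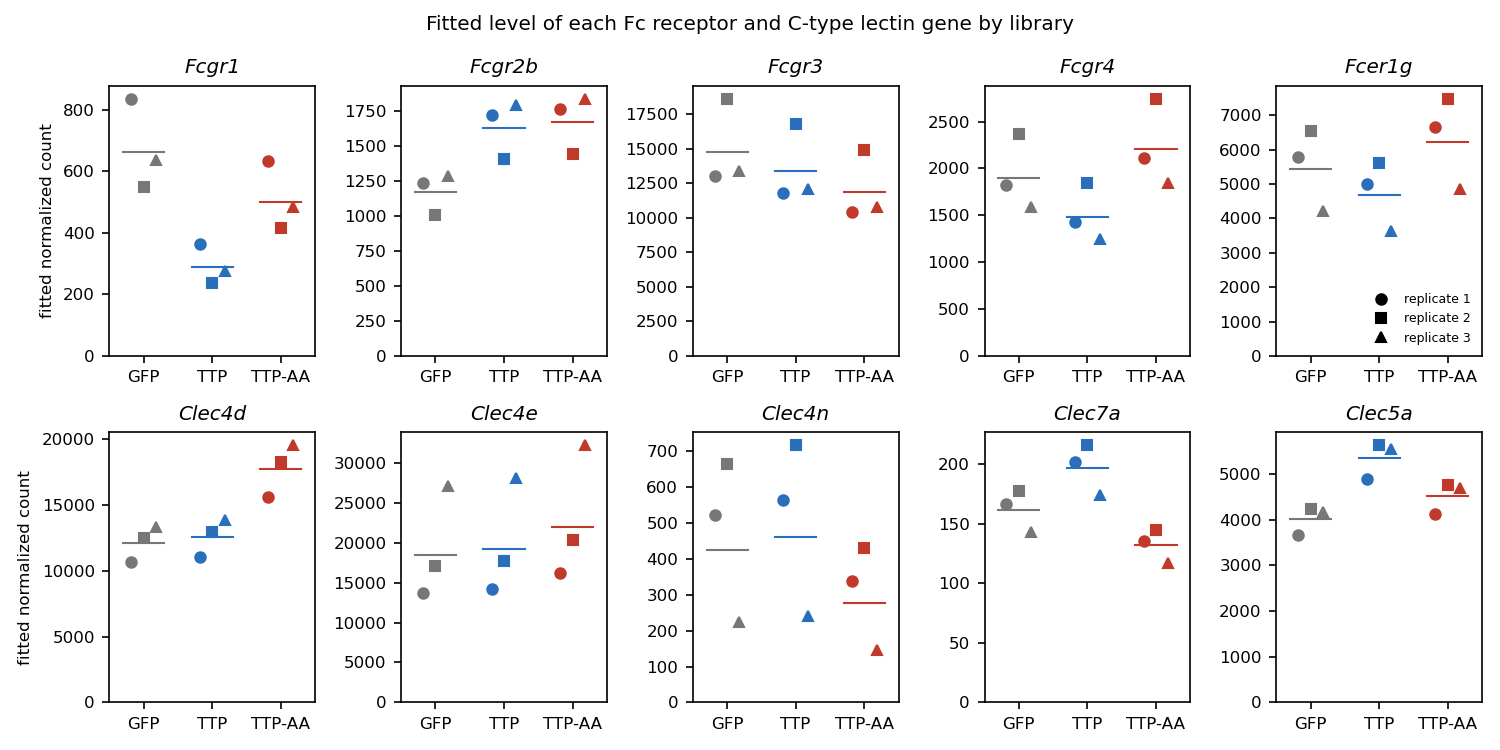
Fitted normalized count divided by the library factor (vertical axes, linear from 0) for each gene in GFP, TTP and TTP-AA, with symbols for replicates 1 to 3 and a line for the group mean. The same pattern of symbols recurs in every group because the values are fitted means, and in Fcgr1 the 3 TTP points, from 238 to 363, lie under those of the other groups.

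The lectins that use the gamma chain went in different directions. Clec4d (chr6:123262111-123275265, plus strand), which encodes MCL, was higher in TTP-AA than in either other group. Its fitted levels were 10627, 12474 and 13314 in GFP, 11071, 12955 and 13872 in TTP, and 15561, 18216 and 19516 in TTP-AA. The TTP-AA values lay above all others, and those of GFP and TTP overlapped. Clec4d rose by 0.56 ± 0.13 on the log2 scale in TTP-AA vs GFP (adjusted p = 0.000519) and by 0.50 ± 0.13 in TTP-AA vs TTP (adjusted p = 0.00132), while TTP vs GFP gave 0.06 ± 0.13 (adjusted p = 0.867). S100a8, a neutrophil marker, was also higher in TTP-AA, by 0.76 ± 0.21 against GFP (adjusted p = 0.00415) and by 0.74 ± 0.21 against TTP (adjusted p = 0.0033), and was the only one called of 2 neutrophil markers tested, Camp giving 0.19 ± 0.23 and 0.26 ± 0.23. The 4 neutrophil markers summed to 131 to 192 in GFP, 132 to 194 in TTP and 211 to 317 in TTP-AA, and their part in the Clec4d result was not tested.

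Clec4n (chr6:123229843-123247021, plus strand), encoding Dectin-2, was lower in TTP-AA. Fitted levels were 522, 665 and 223 in GFP, 565, 717 and 241 in TTP, and 339, 430 and 145 in TTP-AA. The groups overlapped because replicate 3 was the lowest of each group. Clec4n fell by 0.61 ± 0.17 in TTP-AA vs GFP (adjusted p = 0.00424) and by 0.72 ± 0.17 in TTP-AA vs TTP (95% interval -1.06 to -0.39, adjusted p = 0.000253), and TTP vs GFP gave 0.11 ± 0.17 (adjusted p = 0.774). Zbtb46, a transcription factor of classical dendritic cells, was lower in TTP-AA too, at -1.10 ± 0.23 against GFP (adjusted p = 5.17e-05) and at -1.06 ± 0.23 against TTP (adjusted p = 5.8e-05). It was the only one called of 4 dendritic cell markers tested in each comparison: Itgax gave 0.30 ± 0.23 and -0.46 ± 0.23, Flt3 -0.22 ± 0.15 and -0.18 ± 0.15, and Xcr1 -0.13 ± 0.23 and 0.05 ± 0.23 against GFP and TTP, respectively. The 5 dendritic cell markers summed to 299 to 357 in GFP, 297 to 353 in TTP and 241 to 292 in TTP-AA, and their part in the Clec4n result was not tested.

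Clec4e (chr6:123281789-123289870, minus strand), which encodes Mincle and had the highest fitted counts of the set before division by length, was called in no comparison. Its fitted levels ran from 13658 to 27045 in GFP, 14188 to 28095 in TTP and 16235 to 32178 in TTP-AA. The log2 fold change was 0.05 ± 0.23 in TTP vs GFP (adjusted p = 0.936), 0.26 ± 0.23 in TTP-AA vs GFP (adjusted p = 0.503) and 0.21 ± 0.23 in TTP-AA vs TTP (adjusted p = 0.558). The largest standard error of any gene was 0.235 in each of the 3 comparisons, and that of Clec4e lay next to it. Fgr, at a mean count of only 28.2, also had 0.23 in each comparison, so this value does not single out Clec4e. The 95% interval for TTP-AA vs TTP, -0.25 to 0.67, contains the change seen in its neighbour Clec4d, so a change of that size is not excluded for Clec4e.

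The lectins with other signalling partners were both lower in TTP-AA than in TTP. Clec5a (chr6:40574894-40585821, minus strand), the gene for MDL-1, had fitted levels of 3664, 4228 and 4159 in GFP, 4888, 5622 and 5549 in TTP, and 4131, 4754 and 4694 in TTP-AA. All TTP values lay above all values of the other groups. Clec5a rose by 0.41 ± 0.08 on the log2 scale in TTP vs GFP (adjusted p = 3.48e-05), fell from TTP to TTP-AA, at -0.23 ± 0.08 (adjusted p = 0.0249), and gave 0.18 ± 0.08 in TTP-AA vs GFP (adjusted p = 0.111). Its standard error was among the smallest, at percentile 6.6 of all genes in TTP vs GFP.

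Clec7a (chr6:129461591-129472779, minus strand), encoding Dectin-1, was the least abundant member. Fitted levels were 167, 178 and 143 in GFP, 202, 216 and 174 in TTP, and 136, 145 and 117 in TTP-AA. All TTP values exceeded all TTP-AA values, and the GFP values overlapped with both. The log2 fold change was -0.56 ± 0.20 in TTP-AA vs TTP (adjusted p = 0.0216), 0.28 ± 0.20 in TTP vs GFP (adjusted p = 0.453) and -0.28 ± 0.20 in TTP-AA vs GFP (adjusted p = 0.363). GENCODE M21 lists this gene as a polymorphic pseudogene, a class for genes that are intact in some mouse strains only.

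The term for the replicate number, which stands for the date of the library in the authors' model, was as wide as or wider than the range over groups for 5 of 10 members, against 59.7% of all listed genes. For Clec4n the range over replicate numbers was 1.58 on the log2 scale and that over groups 0.74, and replicate 3 differed from replicate 1 by -1.23 in each group. For Clec4e the ranges were 0.99 and 0.25, and replicate 3 was the highest of each group. These replicate ranges stood at percentile 99.1 and 95.7 of all genes. For Fcgr1, in contrast, the range over groups was 1.20 and that over replicate numbers 0.61. The medians over all genes were 0.33 for replicate numbers and 0.26 for groups.

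**Figure D3:**
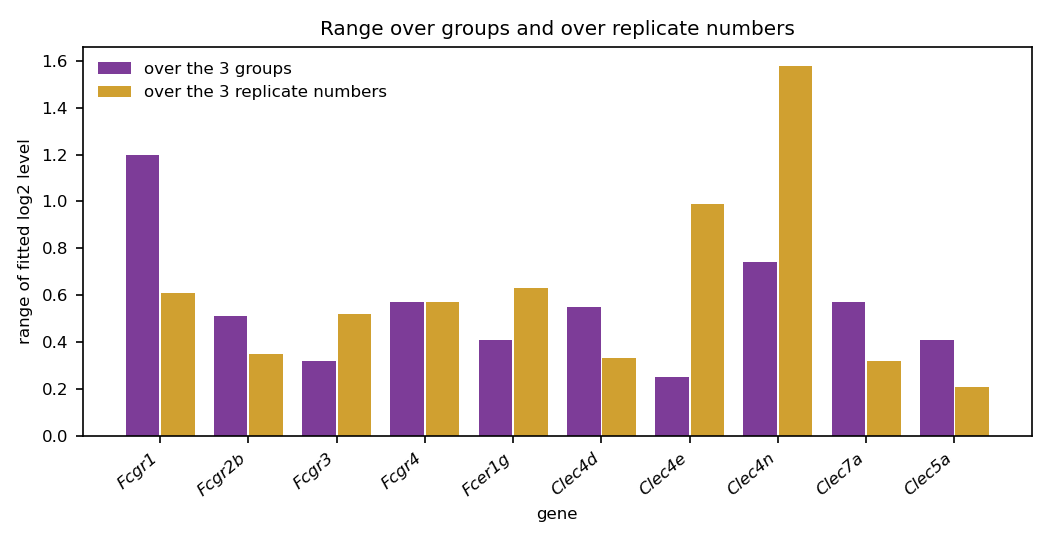
Range of the fitted log2 level (vertical axis) over the 3 group means and over the 3 replicate numbers for each gene. Clec4n and Clec4e have the tallest replicate bars, 1.58 and 0.99, and Fcgr1 has the tallest group bar, 1.20.

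The position of the members in the genome allowed neighbours to be compared. Clec4n, Clec4d and Clec4e lie within a cluster on chromosome 6 that also holds Clec4a1, Clec4a2 and Clec4a3, whose products include inhibitory or regulatory lectins of the same family. In TTP-AA vs TTP these 3 rose by 0.77 ± 0.20 (adjusted p = 0.000707), 0.72 ± 0.17 (adjusted p = 0.000343) and 0.67 ± 0.18 (adjusted p = 0.00176) on the log2 scale, respectively. Clec4n, which lies between Clec4a2 and Clec4d, changed the opposite way, at -0.72 ± 0.17. In TTP vs GFP, Clec4a2 and Clec4a3 fell by 0.53 ± 0.17 (adjusted p = 0.0308) and 0.59 ± 0.18 (adjusted p = 0.0194), and Clec4a1, Clec4n, Clec4d and Clec4e were not called. On chromosome 1, none of the 5 genes between Fcgr3 and Fcer1g or within Fcgr3 (Mir6546, Sdhc, Pcp4l1, Tomm40l and Apoa2) was called in any comparison by the DESeq2 Wald test, and 0 had an unadjusted p under 0.05.

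**Figure D4:**
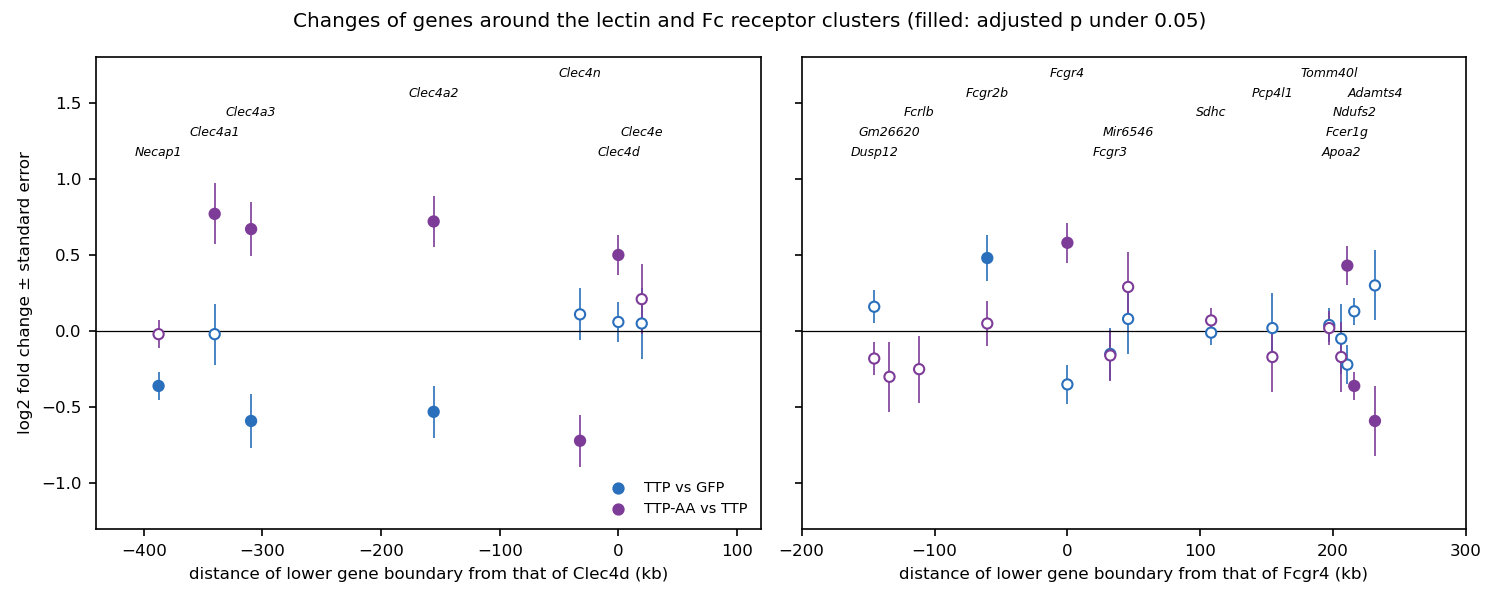
Log2 fold change with standard error (vertical axis) of the tested genes around Clec4d on chromosome 6 and around Fcgr4 on chromosome 1, against the distance in kb of each gene's lower boundary from that gene's. In TTP-AA vs TTP, Clec4a1, Clec4a2, Clec4a3 and Clec4d lie between 0.50 and 0.77 while Clec4n lies at -0.72.

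Adaptors and kinases that act downstream of these receptors were called at shares near the background. Of 24 signalling partners, 2 were called in TTP vs GFP, 4 in TTP-AA vs GFP and 7 in TTP-AA vs TTP, which is 8.33%, 16.7% and 29.2% of them. The adaptor genes Tyrobp (DAP12) and Hcst (DAP10) were called in none, with values of -0.01 ± 0.13 (adjusted p = 0.973) and 0.10 ± 0.18 (adjusted p = 0.725) in TTP-AA vs TTP. Syk rose by 0.38 ± 0.11 in TTP-AA vs GFP (adjusted p = 0.00828) and 0.45 ± 0.11 in TTP-AA vs TTP (adjusted p = 0.000637), and gave -0.07 ± 0.11 in TTP vs GFP (adjusted p = 0.784). Fgr, a kinase of the Src family with a mean count of 28.2, rose by 1.09 ± 0.23 in TTP-AA vs GFP (adjusted p = 7.27e-05). In TTP-AA vs TTP Fgr rose by 0.81 ± 0.23 (adjusted p = 0.0032). Src rose by 0.59 ± 0.17 in TTP vs GFP (adjusted p = 0.00669) and by 0.84 ± 0.17 in TTP-AA vs GFP (adjusted p = 1.52e-05). In TTP-AA vs TTP Src gave 0.24 ± 0.16 (adjusted p = 0.285). Plcg1, encoding a phospholipase, fell by 0.57 ± 0.12 in TTP-AA vs GFP (adjusted p = 7.01e-05) and by 0.76 ± 0.12 in TTP-AA vs TTP (adjusted p = 1.17e-08).

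The calls among other C-type lectin and lectin-like genes went one way in each comparison, and those among the 5 lectin members went both ways in TTP-AA vs GFP and TTP-AA vs TTP. Of 23 such genes 10 were tested, and 3 were called in TTP vs GFP, all lower, 4 in TTP-AA vs GFP, all higher, and 8 in TTP-AA vs TTP, all higher. These are 30%, 40% and 80% of those tested, where 5.08% of all genes were called lower and 9.11% and 14.0% higher. Their median log2 fold change in TTP-AA vs TTP was 0.69, against -0.01 over all genes. Clec2d, a ligand of an NK cell receptor, rose by 1.08 ± 0.19 in TTP-AA vs TTP (adjusted p = 2.1e-07), Clec10a, a galactose-type lectin, by 1.14 ± 0.22 (adjusted p = 3.66e-06), and Cd207, encoding langerin, by 1.01 ± 0.22 (adjusted p = 9.6e-05). Of 11 other Fc receptor genes, 4 or 5 were tested, with 0 of 4 called in TTP vs GFP by the DESeq2 Wald test (0 at an unadjusted p under 0.05), 1 of 5 in TTP-AA vs GFP and 2 of 5 in TTP-AA vs TTP, against 17.9% and 28.6% of all genes in the TTP-AA comparisons. In TTP-AA vs TTP Fcrl1 rose by 0.56 ± 0.20 (adjusted p = 0.0209) and Fcrls gave -0.77 ± 0.23 (adjusted p = 0.00602). Trim21, the cytosolic antibody receptor, was called in none, and Fcrlb, tested in the TTP-AA comparisons only, in neither.

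A list of 20 interferon-stimulated genes was examined because Fcgr1 is induced by interferon. In TTP vs GFP 15 of 19 tested were called, all lower, with a median of -0.91. In TTP-AA vs GFP 3 of 20 were called, all higher, and in TTP-AA vs TTP 14 of 20, all higher, with a median of 1.17. These are 78.9%, 15% and 70% of those tested, beside the same background shares. Ifih1 gave -2.34 ± 0.18 in TTP vs GFP (adjusted p = 2.34e-35), Cmpk2 -2.03 ± 0.21 (adjusted p = 8.14e-19), Oas3 -1.41 ± 0.18 (adjusted p = 2.66e-12) and Oas2 -1.31 ± 0.21 (adjusted p = 2.55e-08). Fcgr1, Fcgr4 and Fcer1g had the same signs as the called genes of this list in TTP vs GFP and TTP-AA vs TTP. Of these members, only Fcgr1 was called in TTP vs GFP. Clec4n, Clec7a and Clec5a had the opposite signs. Fcgr2b, Clec4d and Clec4e had positive values in both comparisons, and Fcgr3 negative ones. In TTP-AA vs GFP Fcgr1 gave -0.39 ± 0.18 and was not called, while the interferon-stimulated list had a median of 0.17. Whether the change of Fcgr1 depends on interferon was not tested.

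Among 14 other phagocytic and pattern receptors, 0 were called in TTP vs GFP by the DESeq2 Wald test (2 at an unadjusted p under 0.05), 4 in TTP-AA vs GFP and 6 in TTP-AA vs TTP, all higher. These are 28.6% and 42.9% of the list in the TTP-AA comparisons, where 9.11% and 14.0% of all genes were called higher. The complement receptor gene C3ar1 rose by 0.83 ± 0.11 in TTP-AA vs TTP (adjusted p = 1.56e-11), Trem1, an amplifier of inflammatory signals, by 1.09 ± 0.17 (adjusted p = 1.21e-08), and the scavenger receptor genes Msr1 and Cd36 by 0.82 ± 0.14 (adjusted p = 3.67e-07) and 0.92 ± 0.23 (adjusted p = 0.000632). The macrophage marker Emr1 fell by 0.75 ± 0.14 in TTP vs GFP (adjusted p = 1.27e-05) and rose by 1.43 ± 0.14 in TTP-AA vs TTP (adjusted p = 6.53e-21), as Fcgr1 did, and rose by 0.68 ± 0.14 in TTP-AA vs GFP (adjusted p = 7.03e-05), where Fcgr1 gave -0.39 ± 0.18 and was not called. Of the 8 macrophage markers tested in TTP-AA vs TTP 3 were called, and their summed level was 585253 to 803939 in GFP, 490760 to 669588 in TTP and 665446 to 908046 in TTP-AA. Most of this was Lyz2, with 506985 to 716499, 416710 to 587070 and 568277 to 800180 in these groups, and the other 7 markers summed to 78268 to 87695, 74050 to 82518 and 97169 to 110504. Their part in the member results was not tested.

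**Figure D5:**
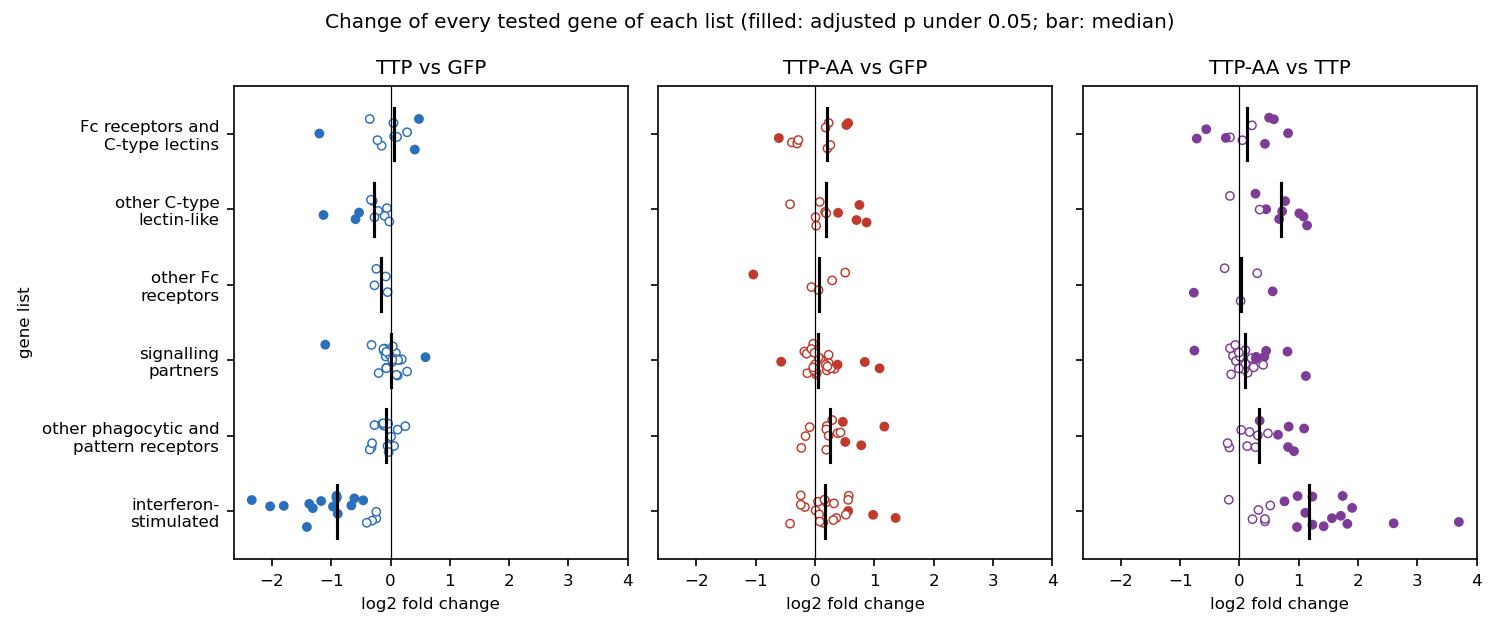
Log2 fold change (horizontal axis) of every tested gene of the 10 members and of 5 related lists (vertical axis) in the 3 comparisons, with filled points for an adjusted p under 0.05 and bars for list medians. In TTP-AA vs TTP the filled points of the members lie on both sides of 0, between -0.72 and 0.82, and those of the other lectins and of the interferon-stimulated genes lie above 0.

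For the 5 members called in 2 comparisons, the genes with the most similar pair of log2 fold changes in TTP vs GFP and TTP-AA vs GFP were sought among 10423 genes with a mean count of at least 100. Nearest to Fcgr1 were Gstm4, Zeb1 and Scly, at a Euclidean distance of 0.100 to 0.114. Vash1, Tmem216 and Snhg5 lay nearest to Fcgr2b, at 0.042 to 0.059, and Ikbke, Tor3a and Ifitm3 nearest to Clec4d, at 0.017 to 0.025. Pif1, Rnf5 and Fbxo47 lay nearest to Clec4n, at 0.012 to 0.023, and Nop10, Ankrd10 and 2610524H06Rik nearest to Clec5a, at 0.007 to 0.013. Of these 5 members, Fcgr1 had the most distant neighbours. Its change in TTP vs GFP stood at percentile 0.65 of all genes, so few genes had a lower value. The distances were not compared with those of other genes at such an extreme.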

How the data were processed

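Total RNA depleted of ribosomal RNA was sequenced as single 50-base reads from 9 macrophage libraries, 3 per group. Per the labels and the study's methods, the authors trimmed reads (Trim Galore), mapped them to GRCm38 with TopHat (TopHat2 2.0.12 per the labels, another release in the methods) keeping up to 2 placements, counted genes with HTSeq and fitted DESeq2 1.6.3 with library date and condition. The deposited signal values, named normalized counts, are fitted means of that model before division by the library factor, so depth per gene is known only through them and no count model was run. The deposited comparison tables hold the authors' log2 fold changes with standard errors, the Wald score, and p-values with adjusted p-values. These were used because the library values carry no error, so no test independent of the authors' tables was possible, and every fold change and p given is theirs. The smallest mean signal among tested genes was 8.98.

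Levels were divided by a median-ratio library factor. Calls used an adjusted p under 0.05 over all genes. The 10 genes, the related lists and the markers were chosen with earlier results of these data known. Named genes were all members, at most 4 per list with the smallest adjusted p plus Tyrobp, Hcst and Syk, the 3 nearest genes of members called in at least 2 comparisons, and genes lying within the clusters. One gene that this rule names among the signalling partners is not reported here. Where nothing says that libraries came from separate cultures beyond the name biological replicates, p-values measure only the spread between them. Alternatives recomputed the p-values from the fold changes and errors. Scripts were tested on simulated data. Software was Python 3.11.15, numpy 2.4.6, pandas 2.3.3, scipy 1.17.1 and matplotlib 3.10.9. Coordinates and transcripts came from GENCODE M21, later than the authors' annotation, and promoters from RefSeq.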

Additional observations from a re-analysis of the deposited data

Results flagged for a closer look

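In 7 members the libraries labelled TTP-AA differed from those labelled TTP in the direct Wald test of the 2 forms. The log2 fold change of TTP-AA vs TTP was 0.82 for Fcgr1, 0.58 for Fcgr4, 0.43 for Fcer1g and 0.50 for Clec4d, and -0.72 for Clec4n, -0.56 for Clec7a and -0.23 for Clec5a. Of all genes 28.6% were called in this comparison. None of the 7 calls was kept after division of the scores by 2.17, their central spread over all genes.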

How the results depend on the processing

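Of 210 recomputed member values, 199 kept their direction and their side of the threshold, 11 lost their call and 0 reversed or gained one. The 11 losses all came from dividing the Wald scores by their central spread, under which the number of members called was 2 in TTP vs GFP, 0 in TTP-AA vs GFP and 0 in TTP-AA vs TTP, and 247, 197 and 266 genes were called in all, against 1097, 2361 and 3780. Centring by chromosome or on the median of all genes, a mean count of at least 50, genes in all 3 tables, a recomputed adjustment and removal of a trend with transcript length and GC content left the counts at 3, 3 and 7. No paired analysis was possible because no scatter between libraries is left in fitted means, so a fit without the replicate term, leaving out each library, and edgeR or DESeq2 on counts with other normalizations and filters were not run. Whether 1 library decides a call is therefore unknown.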
